A study of Mus musculus with 12 samples.

Results

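The genes Rab5a, Cav2 and Tm9sf1 encode proteins of endosomes and caveolae, and their transcripts were followed through an m6A immunoprecipitation of mouse kidney RNA. They were taken from the deposited scanner data as the probes with 10 spots per array whose accession belongs to 1 of these genes: A_51_P117604 for Rab5a, A_51_P279552 for Cav2 and A_51_P455410 for Tm9sf1. These are 3 of the 60706 probes that were not array controls. The animals were male C57BL/6 mice aged 6 to 8 weeks, 3 wild-type (WT) and 3 labelled METTL3-cKO, with the genotype given as METTL3 knockout (cKO below). All 6, the WT controls included, had received glyoxylate at 100 mg/kg in 200 µl by intraperitoneal injection once a day for 7 days, which leads to calcium oxalate crystals in the kidney. The labels used here name neither the promoter that drove the deletion nor the cells it reached. Kidney RNA was separated with an anti-N6-methyladenosine (m6A) antibody into the bound fraction (IP, labelled with Cy5 and read in red) and the unbound supernatant (labelled with Cy3 and read in green), and both fractions of a kidney lay on 1 array.

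m6A is a methyl mark on adenosines within messenger RNA. METTL3 is the enzyme subunit that places it, and proteins that bind the mark can change how fast a transcript is degraded, spliced or translated. Endocytosis carries plasma membrane and bound cargo into early endosomes, from which it is recycled or sent on to lysosomes, and the proximal tubule of the kidney uses this route heavily to take up filtered protein. Rab5a is a small GTPase that marks the early endosome and recruits the factors that tether and fuse incoming vesicles. Cav2 is a caveolin, a partner of Cav1 in the coat of caveolae, small pits of the plasma membrane that are abundant in endothelial cells. Tm9sf1 belongs to the nonaspanins, a family of proteins with many membrane spans that reside in endosomal and Golgi membranes.

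Between 52.1% and 56.1% of probes passed the background test in the red IP channel. In the green channel 38.4%, 52.5% and 31.7% passed on WT arrays 1, 2 and 3, and 49.9% to 56.9% on the cKO arrays. The scan times in the file headers put WT 1 and WT 3 in 1 scan and WT 2 with all 3 cKO arrays in another, called scan 2 here. The low green shares were thus those of WT 1 and WT 3, while WT 2 lay within the range of the cKO arrays. Of 65 endosome and caveola genes looked for, only these 3 had a probe that the files pair with an accession. None of 30 kidney cell type markers had such a probe, nor had Mettl3, so neither the tissue nor the deletion was checked on these arrays.

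The measurement itself was repeated 10 times per array for each gene. After spots marked as non-uniform or outliers were left out, 8 to 10 spots per array remained for Rab5a and for Cav2 and 9 or 10 for Tm9sf1. No spot was saturated. All spots used were well above background in both channels, with 1 exception: the Cav2 supernatant on WT 3, where 0 of 9 spots passed. The Cav2 supernatant signal there was 120 intensity units, under the dimmest probe that passed on that array (205) but above the median of the 15 negative control probes (30.1). That dimmest passing signal was 134 on WT 1 and 113 on WT 2, and 70.0, 101 and 89.4 on the cKO arrays.

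Rab5a was strongly enriched in the m6A fraction relative to the median probe, in both genotypes. Its IP intensity was 3644, 11687 and 5548 units on WT arrays 1, 2 and 3 and 4064, 7301 and 7363 units on the cKO arrays. Its supernatant intensity was 815, 883 and 395 units on the WT arrays and 997, 595 and 856 units on the cKO arrays. The IP signal was the brighter on all 6 arrays, and the genotypes overlapped in both channels.

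The m6A ratio, log2 of IP over supernatant signal relative to the median probe of the array, was 2.11, 3.77 and 3.66 for Rab5a in WT. In cKO it was 2.04, 3.66 and 3.15. Array 1 was the lowest of each genotype, and the remaining arrays lay above 3. The mean was 3.18 ± 0.92 (SD, n = 3) in WT and 2.95 ± 0.83 (SD, n = 3) in cKO, which is 9.07-fold and 7.73-fold above the median probe. Both were called by limma, with an adjusted p of 0.000103 in WT and 0.000239 in cKO. Across all 28363 probes tested, 33.2% were called above the median probe in WT and 28.5% in cKO, and 33.8% and 29.8% were called below it. A call was thus common, while the size of the Rab5a ratio was not: 0.888% of probes had a higher mean ratio in WT and 0.702% in cKO. With normexp background correction followed by loess and Aquantile normalisation, the Rab5a ratio was 2.29 in each genotype and still called. Dyes were not swapped, so the dye effect of a probe and the recovery by the antibody cannot be told apart in any of these ratios.

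**Figure D1:**
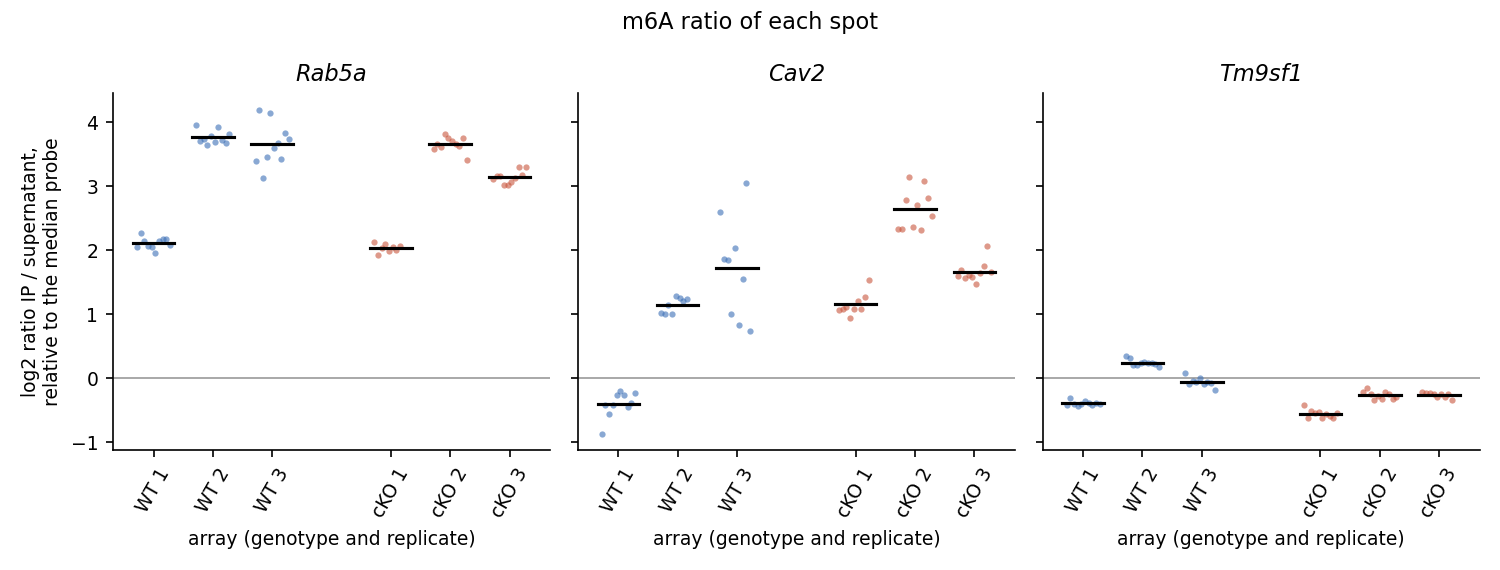
Each point is the m6A ratio (log2 of IP over supernatant relative to the median probe, y axis) of 1 spot on 1 array (x axis, WT in blue, cKO in red), and each bar is the mean over the spots of that array. On most arrays the spots lie close together compared with the spread between arrays of a genotype. Cav2 on WT 3 is the widest, with spots from 0.74 to 3.05, and some arrays overlap, such as cKO 2 and cKO 3 for Tm9sf1. The array means of Rab5a lie above 2 on every array.

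Cav2 was the member that differed most between the genotypes in the m6A ratio, by an amount that did not pass the test. Its IP intensity was 329, 1022 and 442 units on the WT arrays and 410, 952 and 868 units on the cKO arrays. Its supernatant intensity was 421, 475 and 120 units on the WT arrays and 186, 157 and 281 units on the cKO arrays. The IP values of the genotypes overlapped, and in the supernatant the values of WT 1 and WT 2 lay above all cKO values while WT 3 lay below them.

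The Cav2 ratio was -0.40, 1.15 and 1.73 on the WT arrays and 1.15, 2.64 and 1.67 on the cKO arrays. The value of 1.73 on WT 3 rests on a supernatant signal not well above background, and with signals raised to the dimmest passing probe of each channel and array it was 1.23, with a WT mean of 0.71. WT 1 was the only array on which the ratio lay below the median probe, and WT 2 and WT 3 fell within or next to the range of the cKO arrays. The mean was 0.82 ± 1.1 (SD, n = 3) in WT, with a 95% interval of -0.09 to 1.74, and 1.82 ± 0.76 (SD, n = 3) in cKO, with an interval of 0.91 to 2.73. Against the median probe, Cav2 was therefore called in cKO (3.54-fold, limma adjusted p = 0.00439) and not in WT (adjusted p = 0.0979). These calls do not show a difference between the genotypes, which was tested on its own and did not pass. The cKO call held with each array left out, while the missing call in WT depended on WT 1: without that array the WT ratio was 1.44 and was called, with an adjusted p of 0.00685, within a range of 0.00685 to 0.473 over the arrays left out in turn. In WT, 25.1% of probes had a higher mean ratio than Cav2, against 5.52% in cKO. With normexp the Cav2 ratio fell to 0.27 in WT and 0.81 in cKO, and with loess and Aquantile added it was 0.23 and 0.78. It remained called in cKO under both.

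Tm9sf1 was divided between the fractions much as the median probe was. Its IP intensity was 6286, 11600 and 8844 units on the WT arrays and 6879, 6423 and 8364 units on the cKO arrays, and its supernatant intensity was 7964, 10075 and 8276 units on the WT arrays and 10189, 7957 and 10290 units on the cKO arrays. In these dye-normalised signals the supernatant was the brighter fraction on all 3 cKO arrays and on WT 1. Signals that were only background-subtracted kept the order on the cKO arrays and WT 3. They reversed it on WT 1 (IP 900, supernatant 744) and WT 2 (IP 866, supernatant 985), so the brighter fraction of Tm9sf1 in WT depended on the dye normalisation. The Tm9sf1 m6A ratio was -0.39, 0.25 and -0.06 on the WT arrays and -0.55, -0.26 and -0.26 on the cKO arrays. All cKO values were thus below the median probe, and the genotypes overlapped through WT 1. The mean was -0.07 ± 0.32 (SD, n = 3) in WT and -0.36 ± 0.17 (SD, n = 3) in cKO. Neither passed the limma test against the median probe, with an adjusted p of 0.747 in WT and 0.105 in cKO. In WT the sign turned under 7 of 16 alternatives. In cKO it was kept under all 16, the 95% interval lay below 0 under 5, and 1 was called (normexp, loess and Aquantile, -0.37, adjusted p = 0.0192, against 0.0192 to 0.343 over all alternatives).

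**Figure D2:**
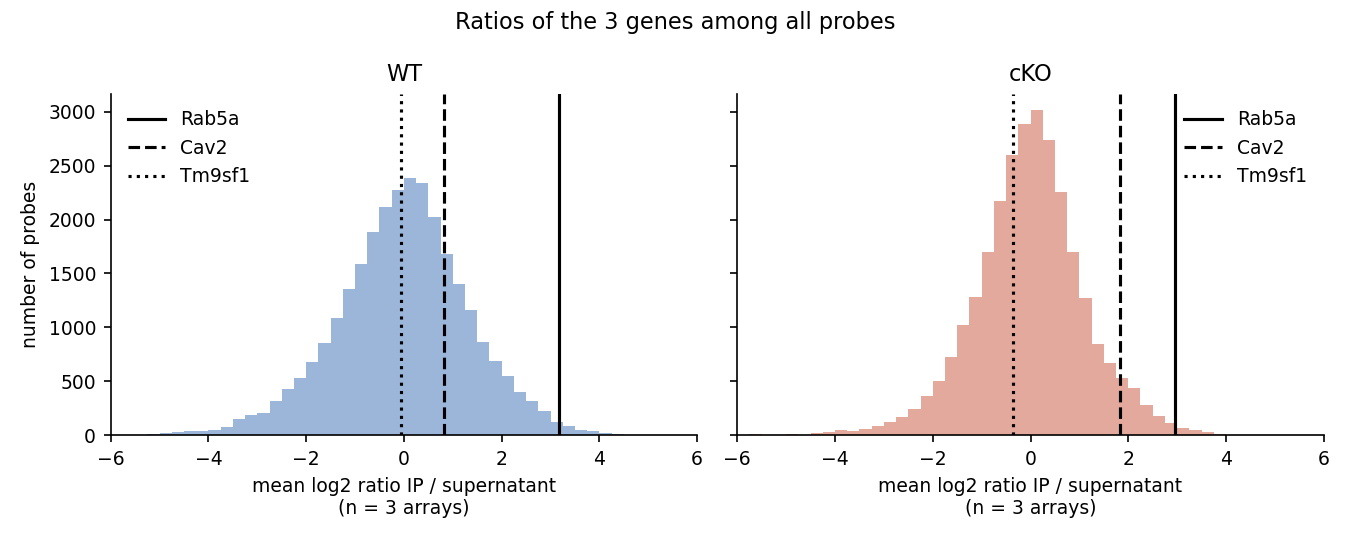
The bars count probes by their mean m6A ratio over 3 arrays (x axis, log2; y axis, number of probes) in WT (left) and cKO (right), and the vertical lines mark the 3 genes. Rab5a sits in the upper tail in both panels, Tm9sf1 near the centre, and Cav2 moves from 0.82 in WT to 1.82 in cKO, a shift whose 95% interval includes 0.

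The genotype comparison asked whether kidneys labelled METTL3-cKO differed from WT in how much of each transcript was recovered in the m6A fraction, relative to the median probe. Each array was centred on its own median probe, so a change in recovery shared by most transcripts would not show here. None of the 3 genes passed, and 0 of 3 had an unadjusted limma p under 0.05 in any of the 4 readouts described here. For the ratio, 0.00353% of all probes tested were called, which is 1 of 28363, and 4770 had an unadjusted p under 0.05. Rab5a differed by -0.23 ± 0.53 (log2, SE) with a 95% interval of -1.44 to 0.98. Tm9sf1 differed by -0.29 ± 0.24 with an interval of -0.85 to 0.26. These intervals leave room for changes of either sign.

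Cav2 had the largest estimate of the 3, higher in cKO by 1.00 ± 0.57 (log2, SE), with an interval of -0.29 to 2.29 and an adjusted p of 0.398. In size it was above 94.4% of the differences of all probes, whose median size was 0.32. The genotypes overlapped for all 3 genes, while 24.5% of all probes had ratios that did not overlap. The Cav2 estimate was above 0 under all 19 alternatives that gave a value, its 95% interval excluded 0 under 5 of them, and none passed after adjustment. It moved from 0.38 without WT 1 to 1.45 without WT 3, and it was 0.54 with normexp. With the replicate number as a block it stayed at 1.00, with an interval of 0.096 to 1.90 and a limma adjusted p of 0.193. With signals raised to the background limit it was 1.12, with an interval of 0.09 to 2.14 and an adjusted p of 0.252, against 0.193 to 0.732 over all alternatives. Within scan 2, where only WT 2 represents the WT, the Cav2 difference was 0.67, that of Rab5a -0.82 and that of Tm9sf1 -0.60. Such a comparison takes its spread from the cKO arrays alone and assumes that WT 2 varies like them, so it is given here for its values. The direction for Rab5a was not settled by the data: when the arrays were given ratio distributions of equal width, the Rab5a difference was 0.50 in place of -0.23.

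**Figure D3:**
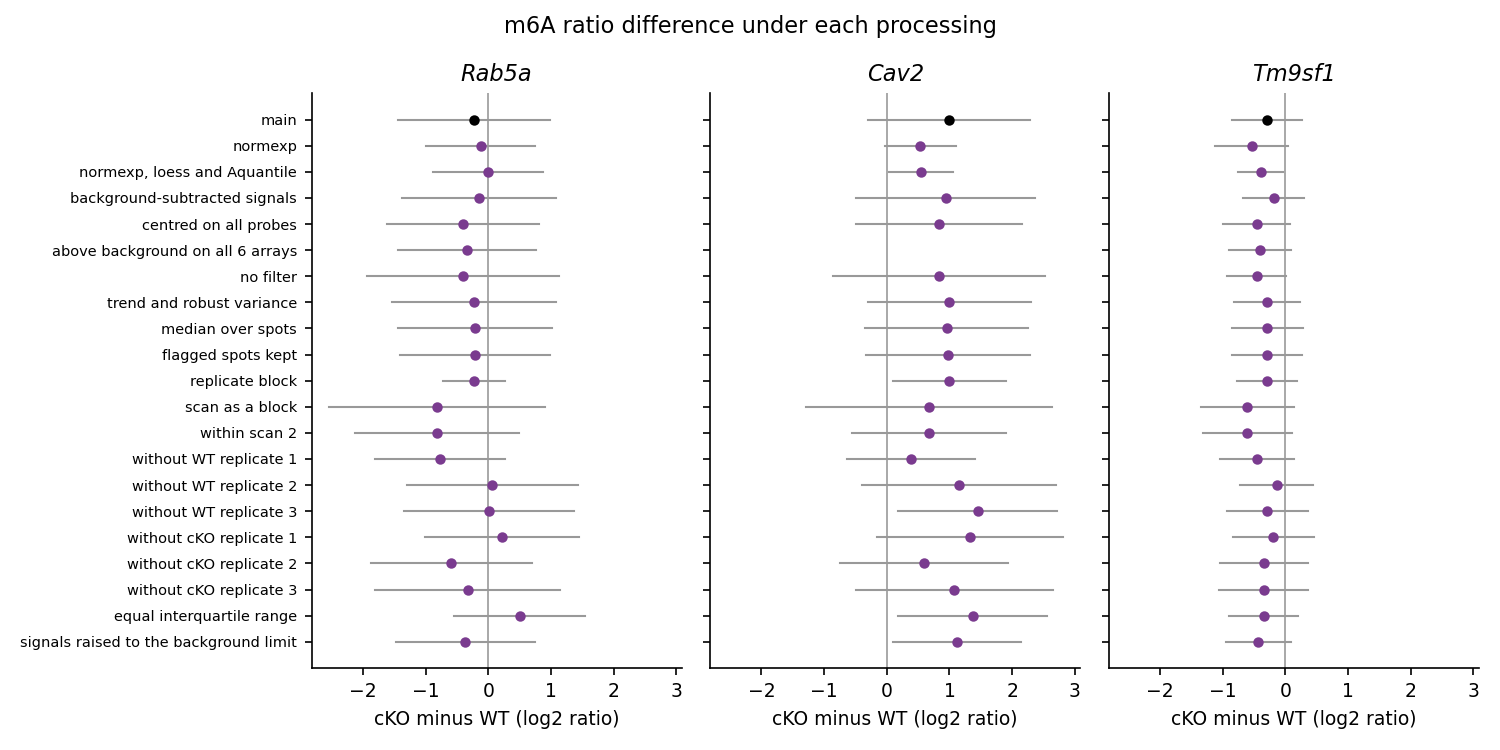
Points are the difference in m6A ratio between cKO and WT (x axis, log2) under each way of processing the data (rows, the reported setting in black), and lines are 95% confidence intervals. Cav2 stays to the right of 0 and Tm9sf1 to the left in every row that has a value, while Rab5a falls on both sides.

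The fractions were then compared one at a time, as log2 signal relative to the 75th percentile of the channel. For Rab5a the IP signal was 3.21, 4.15 and 3.55 on the WT arrays and 2.98, 3.81 and 3.74 on the cKO arrays, and the supernatant signal was 1.05, 0.42 and -0.16 on the WT arrays and 0.95, 0.19 and 0.62 on the cKO arrays. The genotypes overlapped in both. The differences were -0.13 ± 0.32 (SE, adjusted p = 0.906) in the IP and 0.15 ± 0.34 (adjusted p = 0.946) in the supernatant by limma.

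For Cav2 the IP signal was -0.26, 0.63 and -0.10 on the WT arrays and -0.32, 0.87 and 0.65 on the cKO arrays, and the supernatant signal was 0.10, -0.48 and -1.88 on the WT arrays and -1.47, -1.73 and -0.98 on the cKO arrays. The genotypes overlapped in both fractions, in the supernatant only through WT 3, the array on which this probe was not well above background. The difference was 0.31 ± 0.37 (log2, SE) in the IP and -0.64 ± 0.47 in the supernatant, with intervals of -0.52 to 1.14 and -1.73 to 0.45, so the larger estimate lay in the supernatant. The supernatant interval lay below 0 under 5 of 18 alternatives, and none passed after adjustment. Among them, signals raised to the background limit gave -0.90 (-1.60 to -0.20), and leaving out WT 3 gave -1.20 (-1.88 to -0.53). Without WT 1 the difference was -0.21. The IP difference changed sign within scan 2, to -0.23, while the supernatant difference there was -0.92.

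For Tm9sf1 the IP signal was 3.99, 4.14 and 4.22 on the WT arrays and 3.74, 3.62 and 3.92 on the cKO arrays. This was the only one of the readouts in which the genotypes of a member did not overlap, with all cKO values lower. In the IP channel 17.7% of all probes did not overlap, and 10.8% did so with cKO lower. The Tm9sf1 difference was -0.36 ± 0.21 (log2, SE), with an interval of -0.82 to 0.11 and a limma adjusted p of 0.530. It was -0.37 within scan 2. The supernatant signal was 4.34, 3.93 and 4.22 on the WT arrays and 4.30, 3.93 and 4.21 on the cKO arrays. The ranges of the genotypes nearly coincided, and the difference was -0.02 ± 0.21 (log2, SE). Across all probes, 0.104% were called in the IP and 0.225% in the supernatant, where 16.7% did not overlap.

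**Figure D4:**
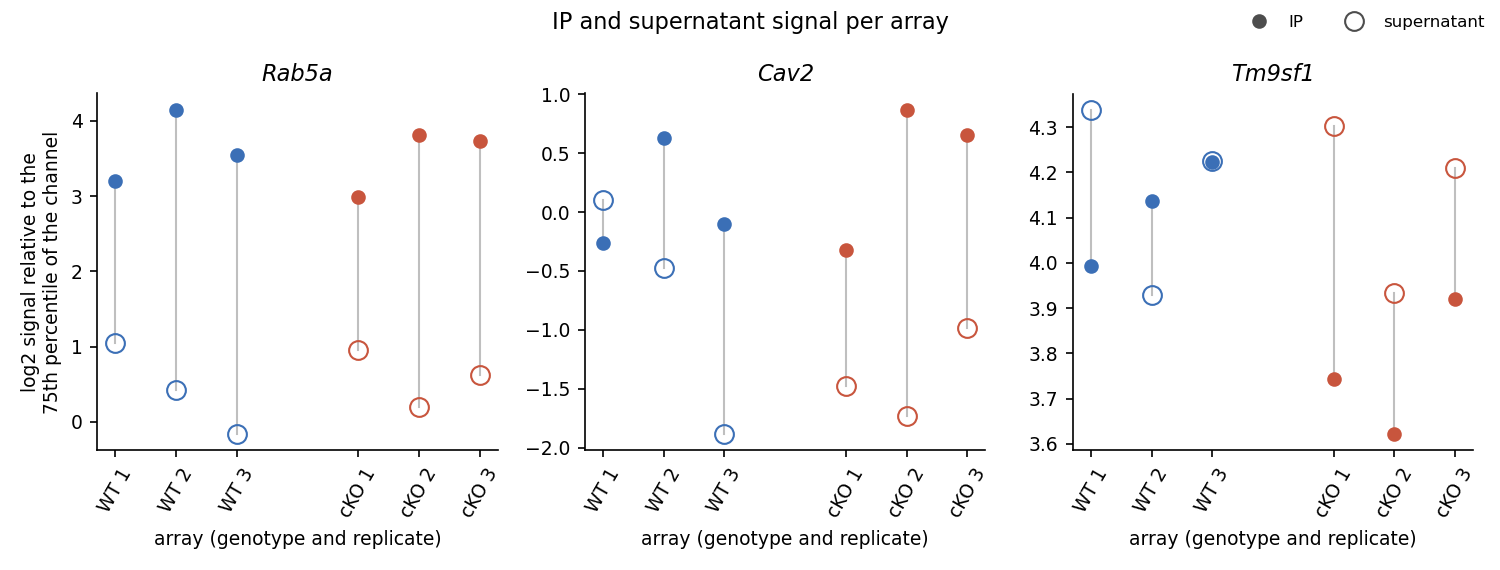
Filled points are the IP signal and open rings the supernatant signal of a gene on each array (y axis, log2 relative to the 75th percentile of the channel, with a scale of its own per panel), joined by a line. The filled points lie far above the rings for Rab5a on all arrays, Cav2 is inverted on WT 1 only, and for Tm9sf1 the filled cKO points lie below the filled WT points.

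The total signal, log2 of both fractions added after each was scaled to its 75th percentile, served as a rough measure of each transcript in both fractions together. Both fractions count equally in it, whatever share of the RNA was bound, so it is not the abundance in unseparated RNA. In bulk kidney RNA, fewer cells of a type and less RNA per cell cannot be told apart. Rab5a was at 3.50, 4.25 and 3.66 on the WT arrays and 3.30, 3.92 and 3.89 on the cKO arrays. Cav2 was at 0.93, 1.18 and 0.27 on the WT arrays and 0.21, 1.09 and 1.05 on the cKO arrays. The genotypes overlapped for both genes, with the low value of Cav2 on WT 3 and on cKO 1.

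Tm9sf1 was at 5.18, 5.04 and 5.22 on the WT arrays and 5.05, 4.79 and 5.07 on the cKO arrays, again with overlap. The total signal differed by -0.10 ± 0.26 (log2, SE) for Rab5a, -0.01 ± 0.31 for Cav2 and -0.18 ± 0.17 for Tm9sf1, with limma adjusted p values of 0.968, 0.999 and 0.853. The intervals were -0.70 to 0.50, -0.72 to 0.71 and -0.57 to 0.22. Of all probes, 0.186% were called for the total signal and 15.5% did not overlap. Within scan 2 the differences were -0.55, -0.40 and -0.07 in the same order.

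**Figure D5:**
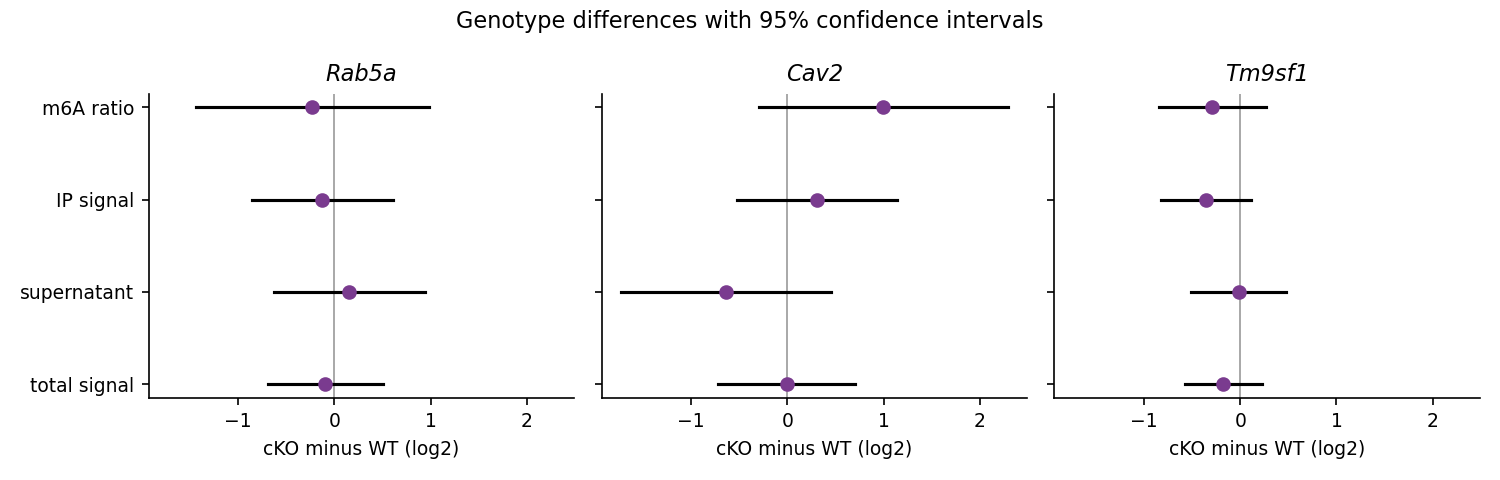
Points are limma estimates of the cKO minus WT difference (x axis, log2) for the m6A ratio, the IP signal, the supernatant signal and the total signal of each gene, with 95% confidence intervals as lines (n = 3 arrays per genotype). All 12 intervals include 0, and that of Cav2 is the widest in every row.

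The spots of an array and the arrays of a genotype were also set side by side. The median standard error of the ratio over the spots of an array was 0.032 for Rab5a, 0.060 for Cav2 and 0.018 for Tm9sf1. The SD between arrays of a genotype was 0.88, 0.95 and 0.25, which is 27.7, 15.7 and 14.4 times as large. The spots of an array share its labelling, hybridisation and antibody recovery, so their standard error covers none of the error in those steps. Set among all probes with a value on every array, the spread of the ratio was in percentile 97.3 for Rab5a, 98.3 for Cav2 and 30.5 for Tm9sf1. The spread of the total signal was less unusual, in percentile 75.8, 88.0 and 10.1. With 62976 spots for 60706 probes that were not controls, most other probes were not averaged over 10 spots. These percentiles thus set averaged genes against probes whose spread holds more spot noise.

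The arrays also differed in how wide the ratios of all probes were. The interquartile range was 1.59, 1.72 and 1.94 on the WT arrays and 1.30, 1.41 and 1.43 on the cKO arrays, and the narrowest array of each genotype, WT 1 and cKO 1, was the one with the lowest ratio of all 3 genes. With equal widths the SD of the Rab5a ratio was 0.68 in WT and 0.82 in cKO, in place of 0.92 and 0.83. That of Cav2 was 0.95 and 0.80 in place of 1.1 and 0.76, and that of Tm9sf1 0.30 and 0.22 in place of 0.32 and 0.17. The part of these widths in the spread of the 3 genes was not tested otherwise.

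As a description over 6 arrays, the ratios of Rab5a and Tm9sf1 went up and down together (Pearson r = 0.81), those of Rab5a and Cav2 less so (0.69), and those of Cav2 and Tm9sf1 hardly (0.19). All points share the arrays and their scaling. Among the other named probes with 10 spots, the Rab5a ratio was most like that of Gpi1 (r = 0.95), a glycolytic enzyme, and Actb (0.94), the cytoskeletal beta actin. The Cav2 ratio was most like that of Actb (0.85) and Rab5a (0.69), and the Tm9sf1 ratio like those of Acaa2 (0.95), an enzyme of mitochondrial fatty acid oxidation, and Gpi1 (0.95). In the total signal, Rab5a and Cav2 were each most like the other (0.76), followed by Lhfp (0.66) for Rab5a, while Tm9sf1 was most like Gpi1 (0.94) and Ppara (0.89), a nuclear receptor of lipid metabolism.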

How the data were processed

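The deposited intensity values are the authors' linear scanner signals in both colours, made with Agilent Feature Extraction 11.0.1.1 per the submitters' processing notes, and per the file headers the processed signals used here were background-subtracted and dye-normalised. Each array had 62976 spots. From there, R 4.3.3 with limma 3.58.1 was used, with the data.table package (version 1.17.8). Spots marked as outliers were left out and the rest averaged per probe on the log2 scale. Ratios were centred on each array's median probe, and fractions were scaled to the 75th percentile. No loess was added in the reported setting, but whatever correction the dye normalisation of the processed signals made remains in these values. Centring and scaling remove a change shared by most probes of an array or channel. A probe had to pass the background test on 3 or more of the 6 arrays, which for a probe with 10 spots means with 5 or more spots. Genotypes were compared with lmFit and eBayes, and IP with supernatant as the ratio against 0, two-sided, with Benjamini-Hochberg adjustment over all probes kept and a threshold of 0.05. The code was tested on simulated data.

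The members and the gene lists were chosen with earlier results of these data known. The genes named are the 3 members, the 2 named probes most like each in ratio and in total signal, and any listed gene with a named probe. One gene that this rule names is not reported here. Symbols came from a RefSeq table of assembly GRCm38.p6, which differs from the build in the file headers, so no coordinates are given: 45 of 50 probes with 10 spots matched. Alternatives were other background corrections, scalings, filters, spot averages and variance models, the replicate number and the scan as blocks, and each array left out. Equal widths of the ratio distribution and signals raised to the background limit were added after the data were seen. The labels call the animals biological replicates.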

Additional observations from a re-analysis of the deposited data

How the results depend on the processing

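Of 229 alternative values of the 12 genotype differences, 200 kept their sign, 29 changed it, and none passed the adjusted threshold. Sign changes with normexp were 0.024 for Rab5a and 0.033 for Tm9sf1 in total signal, 0.0065 for Rab5a in the IP and 0.29 for Tm9sf1 in the supernatant. With loess and Aquantile added they were -0.065 for Rab5a and 0.019 for Tm9sf1 in the supernatant, and with scaling by the median -0.084 for Rab5a in the supernatant. The Cav2 total signal was 0.012 with background-subtracted signals and 0.0071 with the median over spots. With the scan as a block and within scan 2, the Cav2 IP was -0.23 and the Tm9sf1 supernatant 0.22. Equal interquartile ranges gave 0.50 for the Rab5a ratio. Leaving out each array gave -0.76 to 0.22 for the Rab5a ratio, -0.25 to 0.13 for its total, -0.34 to 0.14 for its IP and -0.14 to 0.46 for its supernatant signal, -0.27 to 0.28 for the Cav2 total and -0.13 to 0.093 for the Tm9sf1 supernatant signal. Of 94 alternative values of IP against supernatant, 85 kept sign and call. The Tm9sf1 ratio in WT became positive with normexp (0.26), with loess and Aquantile added (0.021), centred on all probes (0.066), with probes above background on all 6 arrays (0.19), without a filter (0.066) and with signals raised to the background limit (0.072), and lay at -0.22 to 0.094 with each array left out. In cKO it was called with normexp, loess and Aquantile (-0.37, adjusted p = 0.0192, against 0.0192 to 0.343 over all alternatives). The Cav2 ratio in WT was 0.37 to 1.44 with each array left out. The causes were not tested. Cav2 has no ratio or supernatant value where all 6 arrays had to pass background.

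Pairing by replicate number was not settled: deviations of same-numbered ratios correlated at 0.33, 0.27 and 0.08. With the replicate block the estimates were the same, the adjusted p of the ratio was 0.521 for Rab5a, 0.193 for Cav2 and 0.406 for Tm9sf1, and calls over all probes numbered 0 for the ratio, 28 for the total, 11 for the IP and 0 for the supernatant signal. In the order ratio, total, IP and supernatant, the reported fits called 1, 67, 35 and 70 probes. Normexp called 0, 20, 18 and 24, normexp with loess and Aquantile 116, 22, 5 and 28, trend and robust variance 0, 158, 70 and 156, the scan as a block 0, 2, 0 and 1, and fits within scan 2 called 0, 3, 5 and 160. Background-subtracted signals called 3 for the ratio, 17 for the IP and 42 for the supernatant, no filter 0, 4 and 16, and signals raised to the background limit 107 for the ratio and 64 for the IP. The filter on all 6 arrays called 179 for the ratio. Leaving out each array gave 0 to 2, 4 to 42, 0 to 11 and 0 to 100. Scaling by the median moved the split of higher and lower calls from 46 and 21 to 53 and 44 for the total and from 64 and 6 to 46 and 13 for the supernatant signal. Precision is limited by having 3 arrays in each genotype.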
